A study of Mus musculus with 2 samples.

Results

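Cytotoxic lymphocytes, the natural killer (NK) cells and cytotoxic T cells, kill a target cell by releasing granules onto it. Perforin opens the target's membrane, and the serine proteases called granzymes enter and cleave proteins inside. Receptors on the lymphocyte decide when this happens, and the cytokines IL-2 and IL-15 keep the cells alive through a shared receptor chain. The liver is rich in NK cells and related innate lymphocytes, which lie in its sinusoids. The 10 genes described here follow that order: the granzymes Gzma, Gzmb and Gzmk, the pore-forming Prf1, the granule membrane protein Nkg7, the lectin-like receptors Klrd1, Klrk1 and Klre1, the activating receptor Ncr1, and the cytokine receptor chain Il2rb. They were taken by name from the platform's probe annotation, which holds all 10 among 19318 named genes, each with 1 probe.

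Liver of mice aged 24 weeks was profiled with 2 arrays, each read in a single colour. One array was hybridised with RNA of Twist2-Cre/A20fl/fl liver, here called CKO, and one with RNA of Twist2-Cre liver, here called control. Both genotypes carry the Twist2-Cre transgene, which recombines floxed alleles in mesenchymal lineages, and CKO adds floxed alleles of A20, the ubiquitin-editing enzyme encoded by Tnfaip3 that restrains NF-kB signalling. The sources name no strain, no treatment and no number of animals per RNA. No statistical test could be made on 1 array of each genotype, and the spread between animals is unknown, so every difference below is between these 2 RNA samples. In bulk tissue, fewer cells of a type and less RNA per cell cannot be told apart.

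Each array held 384 blank spots, which measure the signal without a target. The deposited value table gives each spot's intensity above the trimmed mean of these blanks on a per-array scale, and leaves out nearly all probes less than 2 trimmed SD above that mean. A probe was counted as above background when its spot exceeded the trimmed blank mean by 2 trimmed SD, and 78.3% of all named genes did so on the CKO array and 77.9% on the control array. Hepatocyte markers checked the labelled tissue: all 10 were above background on both arrays, with Alb at deposited intensities of 36770 in CKO and 37445 in control liver, and with log2 ratios of CKO over control of -0.42 for Tat, 0.33 for Hnf4a, -0.16 for Apob and 0.13 for Alb. Tnfaip3 had deposited intensities of 38 in CKO and 41 in control liver, and since the part of the transcript its probe reads is not given, this does not check the label. Ratios are given as log2, CKO over control, after normalization with an offset of 50, which shrinks differences of dim genes. The deposited intensities stand beside them. For a gene above background on a single array, an "at least" fold is given on the normalized scale. It makes no allowance for blank noise, so a small value does not settle the direction.

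The promoters of Gzmb, Gzma and Nkg7 had differences between the livers that were the largest of the 10 in units of the blank noise. They are shown beside that of Ncr1, for which no difference beyond the blank noise was seen. RefSeq sequences on build GRCm38.p6 were found for 8 of the 10 genes, from 250 bases before the transcript start to 50 bases from it. Klrd1 and Il2rb are named only. The sequence of Gzmb is chr14:56262285-56262584 on the minus strand, that of Gzma is chr13:113100932-113101231 on the minus strand, that of Nkg7 is chr7:43436888-43437187 on the plus strand, and that of the first of 2 starts of Ncr1 is chr7:4337465-4337764 on the plus strand. Each reads from 5′ to 3′ along its gene. Capitals mark the letters searched on both strands: TCACAC, core letters of T-box factors; TGTGGT, the core letters of Runx factors; CCGGAA, letters bound by ETS factors; and TTCNNNGAA, the palindromic letters of STAT factors.
Gzmb: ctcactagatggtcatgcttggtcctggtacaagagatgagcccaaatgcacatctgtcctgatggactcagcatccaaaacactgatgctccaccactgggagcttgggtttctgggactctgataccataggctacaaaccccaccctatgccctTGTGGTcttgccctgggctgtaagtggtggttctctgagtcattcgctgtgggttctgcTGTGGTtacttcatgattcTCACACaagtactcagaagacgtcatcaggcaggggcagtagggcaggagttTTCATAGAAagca
Gzma: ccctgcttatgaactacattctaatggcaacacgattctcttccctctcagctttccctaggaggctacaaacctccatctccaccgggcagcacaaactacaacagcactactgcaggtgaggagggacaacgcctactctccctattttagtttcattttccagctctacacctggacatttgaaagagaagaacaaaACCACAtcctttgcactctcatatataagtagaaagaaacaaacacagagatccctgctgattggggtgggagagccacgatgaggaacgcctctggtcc
Nkg7: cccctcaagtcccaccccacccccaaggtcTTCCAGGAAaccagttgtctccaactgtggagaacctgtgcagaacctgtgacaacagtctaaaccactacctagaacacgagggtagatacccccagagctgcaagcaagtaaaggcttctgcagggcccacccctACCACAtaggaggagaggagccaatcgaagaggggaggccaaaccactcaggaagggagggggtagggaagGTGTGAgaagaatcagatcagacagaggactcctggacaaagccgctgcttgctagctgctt
Ncr1: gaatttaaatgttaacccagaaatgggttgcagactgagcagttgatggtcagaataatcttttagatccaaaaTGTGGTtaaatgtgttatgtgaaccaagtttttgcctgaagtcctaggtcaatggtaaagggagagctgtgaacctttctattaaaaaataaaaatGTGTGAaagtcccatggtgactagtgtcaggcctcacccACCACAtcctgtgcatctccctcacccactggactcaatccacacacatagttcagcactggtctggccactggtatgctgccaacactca

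The Runx letters were in the promoters of 7 of the 8 members, all but Gzmk (in Klre1 at 1 of its 2 starts), and in 16.8% of the 32851 promoters of the same length in the table. In Gzmb they began 93 and 34 bases before the start, in Gzma 50 bases before it and in Nkg7 83 bases before it. The T-box letters were in 5 of the 8 (Gzmb, Gzmk, Nkg7, Klre1 and Ncr1), against 14.5% of all promoters, and began 15 bases before the start in Gzmb and 12 bases before it in Nkg7. The ETS letters were in 1 of the 8, Gzmk, against 14.9%, and the STAT letters in 2, Gzmb and Nkg7, against 8.3%. Ncr1 held both T-box and Runx letters, like Gzmb and Nkg7. These matches describe letters in a window and show no binding. The members lie on several chromosomes. Klrd1 and Klrk1 are next to each other on chromosome 6, and Gzma and Gzmk on chromosome 13, with 0 protein-coding genes between them in either pair.

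Of the 10 genes, all 10 exceeded the background threshold on the CKO array and 8 did on the control array. Nkg7 and Gzmk were above it on the CKO array alone, which 2.72% of all named genes were, while 2.27% were above it on the control array alone. No blank spot was as bright as the spots of Gzma, Gzmb, Gzmk, Nkg7, Klrd1, Klrk1, Klre1 and Il2rb on the CKO array. There, 1 of the 384 blanks reached Prf1 and 16 reached Ncr1. On the control array no blank reached Gzmb, Gzma or Il2rb, 2 reached Klrd1, 8 Prf1, 9 Klre1, 20 Klrk1, 26 Ncr1, 30 Nkg7 and 172 Gzmk. Of the 10 genes, 3 were thus clear of every blank in control liver and 8 in CKO liver.

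Blank spots are not the only empty spots. The arrays also held 3454 positions without a probe, and these ran slightly brighter than the blanks, with a median of 70.8 against a trimmed blank mean of 69.2 on the CKO array, and of 68.3 against 67.1 on the control array. By the blank threshold, 35% of them would count as above background on the CKO array and 31.2% on the control array. Against their 95th percentile, a measure chosen after the data were seen, 9 of the 10 genes were above background on the CKO array, all but Ncr1. On the control array 4 were: Gzma, Gzmb, Klrd1 and Il2rb. The control signals of Prf1, Klre1, Klrk1, Ncr1, Nkg7 and Gzmk are thus in the range of empty positions, and a fold taken over them has little precision.

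**Figure D1:**
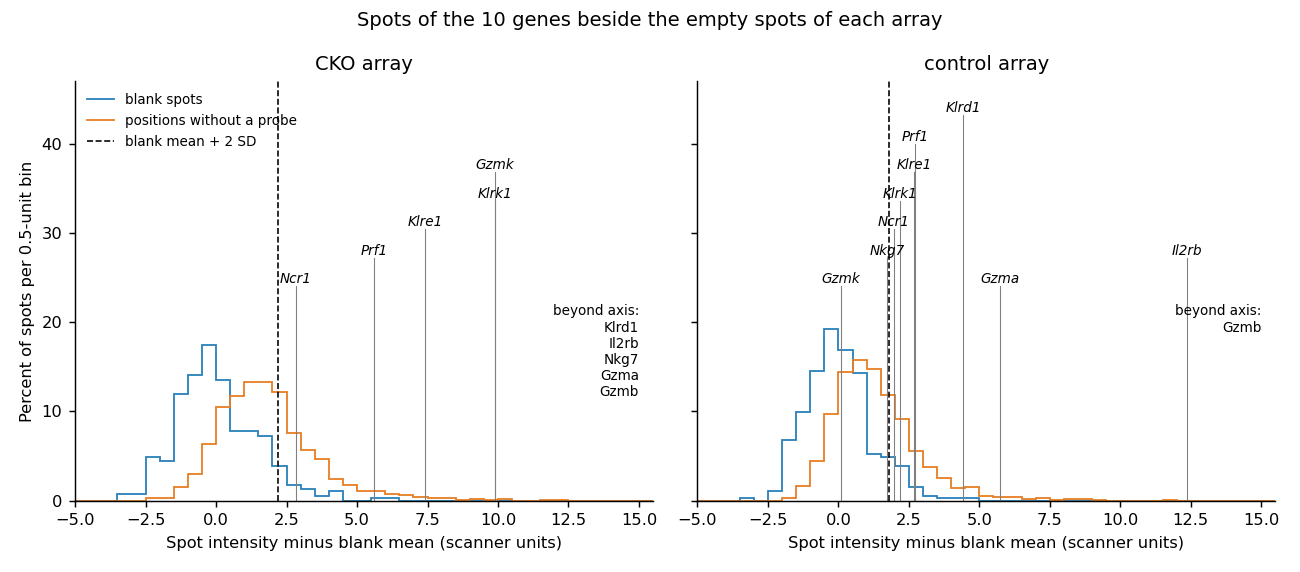
Distribution of blank spots (blue) and positions without a probe (orange) on the CKO and control arrays, as percent of spots per bin of spot intensity minus the blank mean in scanner units, with the spots of the 10 genes as labelled vertical lines (their heights carry no value) and the threshold dashed. On the CKO array only Ncr1 lies within the bulk of the empty positions, and on the control array 6 of the 10 genes do.

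Granzyme transcripts were higher in the CKO liver. Gzma, a trypsin-like granzyme, had a deposited intensity of 36 in CKO and 5 in control liver, a fold of 7.20, and a ratio of 0.69 on the normalized scale. Gzmb, the caspase-activating granzyme, had 62 in CKO and 24 in control liver, a fold of 2.58, and a ratio of 0.63. Gzmk, a further trypsin-like granzyme, had 8 in CKO liver and was not listed in control liver, where its spot was at the level of the blanks (67.2, against a blank mean of 67.1). It was at least 1.14-fold higher on the normalized scale. Gzma and Gzmb were brighter than every blank spot on both arrays, and Gzmk on the CKO array alone. With the local background column, used only as an alternative, the ratios were far smaller, at 0.10 for Gzma and 0.05 for Gzmb. The bound of Gzmk was then 0.03 as log2.

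A part of the error within the arrays is the spread of the blanks, 1.2 in CKO and 1.0 in control liver in deposited units (SD). Lowering the CKO signal and raising the control signal by 2 such SD each left a fold of 4.85 for Gzma, 2.30 for Gzmb and 2.77 for Gzmk. Shifting both the other way gave 13.2 for Gzma and 2.94 for Gzmb, so the fold of Gzmb is the best bounded. These limits cover background noise at the spot only and say nothing of the spread between animals. They take the blank mean as background, although positions without a probe were brighter. They also leave out the technical SD of 0.23 for a log2 ratio that positive control spots give.

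Of the other granule genes, Nkg7 differed by far more than the blank noise, and the difference in Prf1 lay within it. Nkg7, a membrane protein of cytotoxic granules, had a deposited intensity of 26 in CKO liver and was not listed in control liver, where its spot (68.8) lay just under the threshold of 68.9. It was at least 1.51-fold higher on the normalized scale, and a fold of 6.63 was left on the deposited scale after the shift by 2 blank SD. With the local background column its bound was 0.22 as log2. Prf1, the pore-forming protein, had 5 in CKO and 2 in control liver, a fold of 2.50, with a ratio of 0.06. Its fold was 0.514 after the same shift, so the arrays do not settle its direction. Signals of different probes are not comparable as transcript levels, so the genes are not ranked by them.

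**Figure D2:**
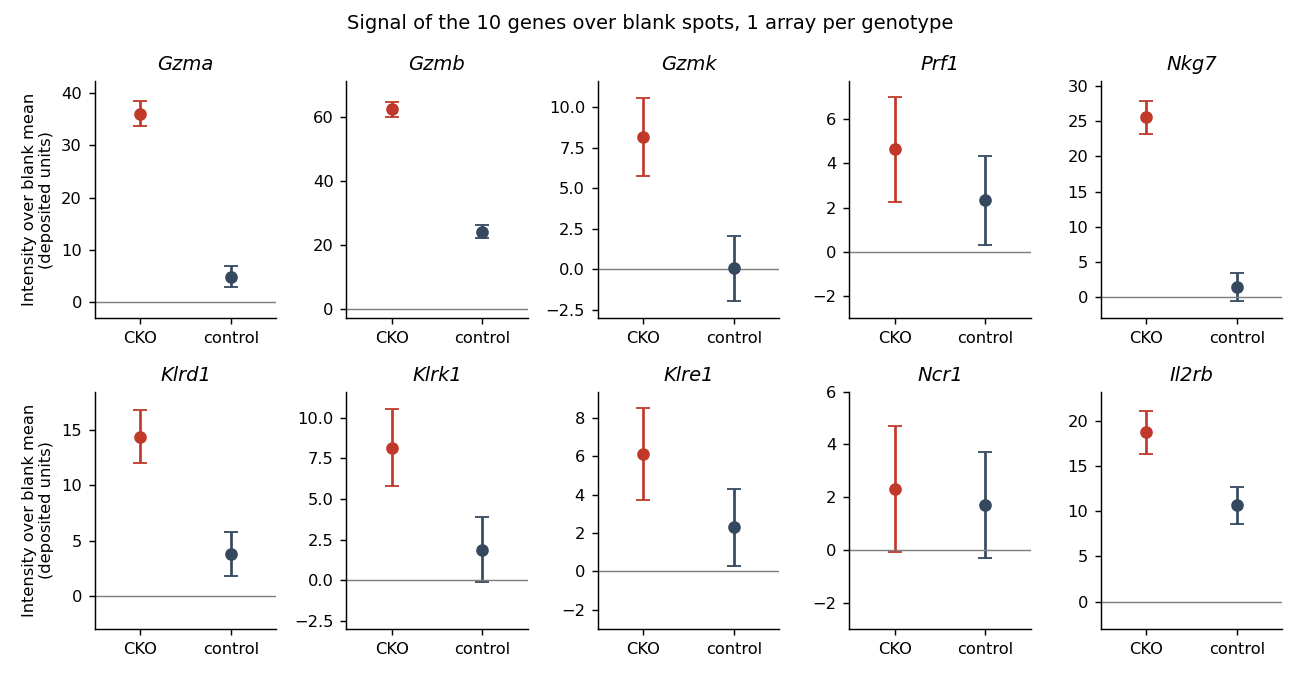
Signal over the blank mean in deposited units (vertical axes, a scale per gene) for the 10 genes in the CKO (red) and control (dark) liver, 1 array each, with bars of 2 blank SD. The bars are apart for Gzma, Gzmb, Gzmk, Nkg7, Klrd1, Klrk1 and Il2rb, and overlap for Prf1, Klre1 and Ncr1.

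Klrd1, Klrk1 and Klre1 are lectin-like receptors encoded in the NK gene complex. Klrd1, or CD94, which pairs with NKG2 chains to read the class I molecule Qa-1, had a deposited intensity of 14 in CKO and 4 in control liver. This is a fold of 3.50, with a ratio of 0.28, and 2.07 was left after the shift by 2 blank SD. Klrk1, or NKG2D, an activating receptor for stress-induced ligands, had 8 in CKO and 2 in control liver, a fold of 4.0 with a ratio of 0.18, and 1.48 was left. Klre1, a mouse receptor that works as a partner of other lectin-like chains, had 6 in CKO and 2 in control liver, a fold of 3.0 with a ratio of 0.11, and 0.864 was left. The differences of Klrd1 and Klrk1 were thus larger than the blank noise, and that of Klre1 was within it. Against the local background column the ratios were near 0, at -0.0036 for Klrd1 and 0.019 for Klrk1.

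Ncr1, or NKp46, an activating receptor largely restricted to NK cells and related innate lymphocytes, was listed at 2 in CKO and 2 in control liver, with a ratio of 0.01. Its spot was 2.82 scanner units over the blanks in CKO and 1.96 in control liver. Both values are near the threshold, so a fall in Ncr1 was not measurable on these arrays. Its difference in signal, CKO minus control, was 0.41 times the combined blank SD, so no rise beyond the blank noise was seen. How well the probe reads Ncr1 was not tested. Il2rb, the chain shared by the receptors for IL-2 and IL-15, had 19 in CKO and 11 in control liver, a fold of 1.73 with a ratio of 0.20. The shift by 2 blank SD left between 1.29 and 2.45 for Il2rb, which was clear of all blanks on both arrays. Its ratio with the local background column was 0.03.

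Across the set, the signal was higher in CKO liver for 10 of the 10 genes with no filter on dim probes, against 43.9% of all named genes. This count includes Prf1, Klre1 and Ncr1, whose differences lay within the blank noise, so their direction is not settled. With the local background column the signs of Klrd1 and Ncr1 reversed. The median ratio of the 10 was 0.21, and that of all named genes was -0.01. On the normalized scale 0 of the 8 genes above background on both arrays were 2-fold higher, against 0.616% of all such genes, and 0 were 2-fold lower, against 0.0753%. On the deposited scale 6 of the 8 listed for both livers had a fold of 2 or more, against 3.98% of all genes so listed, and against 6.66% of those whose control intensity lay in the same range as the members', from 2 to 24. In the other direction the shares of genes at least 2-fold lower were 1.33% of all and 1.97% in that range, with 0 of the members. The 6 were Gzma, Gzmb, Prf1, Klrd1, Klrk1 and Klre1, and for 3 of them, Prf1, Klrk1 and Klre1, the control value was the table's smallest, 2. The difference in signal, CKO minus control, exceeded 3 times the combined blank SD in 7 of the 10, against 13.8% of all named probes and 5.54% of those no brighter in control liver than the brightest member, of which 2.07% differed as far in the other direction. Those 7 were Gzma, Gzmb, Gzmk, Nkg7, Klrd1, Klrk1 and Il2rb.

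**Figure D3:**
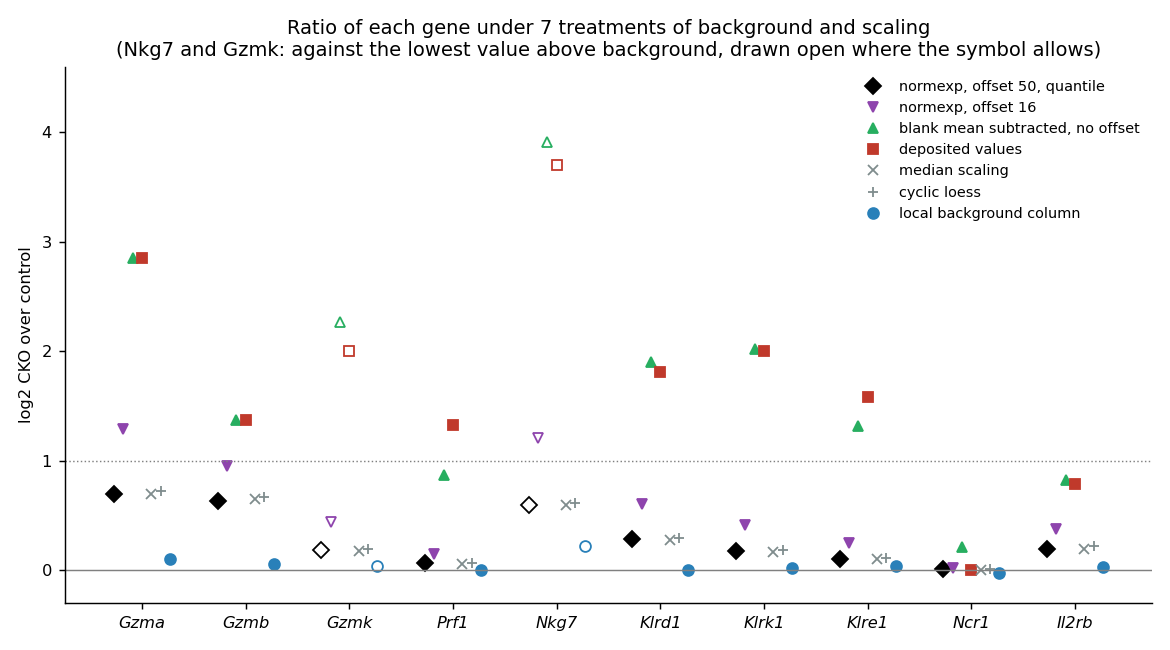
Log2 ratio of CKO over control (vertical axis) for each of the 10 genes under 7 treatments of background and scaling, with bounds for Nkg7 and Gzmk against the lowest value above background, blank noise not included (open symbols where the symbol allows), and the 2-fold line dotted. Without an offset Gzma stands at 2.86 and Ncr1 at 0.21, with the offset of 50 the 10 genes lie between 0.01 and 0.69, and with the local background column none exceeds 0.22.

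Other NK surface genes had a median ratio near 0 as a list, on the scale whose offset shrinks differences of dim genes. Of 27 genes fixed as further NK lectin-like receptors and surface molecules, 23 had a probe and 11 were above background on both arrays, 5 of them higher (42.2% of all genes above background on both arrays were) and 6 lower, with 0 past 2-fold and a median ratio of -0.01. On the deposited scale 1 of the 11, Klra2, was past 2-fold higher, against 3.98% of all genes listed for both livers. A further 4 were above background on the CKO array alone (2.72% of all named genes were) and 0 on the control array alone (2.27%). Beside each list below, the shares over all genes are 42.2% higher and 0.616% past 2-fold higher on the normalized scale. The inhibitory receptor Klra2 (8 in CKO and 3 in control liver, ratio 0.14) and Slamf7 (11 in CKO and 6 in control liver, 0.13) were on the higher side. Cd160 (149 in CKO and 187 in control liver, ratio -0.25) and Cd96 (53 in CKO and 61 in control liver, -0.10) were on the lower side. Klrc1, the NKG2A chain that pairs with Klrd1, was listed at 5 in CKO liver and not in control liver, at least 1.07-fold higher. Cd244a, a SLAM family receptor, was listed at 3 in CKO liver alone, at least 1.01-fold higher. Blank noise is not counted in these bounds, so they do not settle the direction of either gene. Klrb1c, the NK1.1 antigen that defines NK cells in some strains, was not above background on either array, one of 8 such genes on the list.

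Among the adaptors that carry the signal of activating NK receptors, 7 of 9 were higher, 2 of them past 2-fold, with a median ratio of 0.12. The 2 were Tyrobp (309 in CKO and 93 in control liver, ratio 1.37) and Fcer1g (512 in CKO and 189 in control liver, 1.27), which myeloid cells also express. Vav1, an exchange factor downstream of them, had 15 in CKO and 3 in control liver with a ratio of 0.32, and Lcp2 a ratio of 0.14. Hcst, the adaptor of Klrk1, named outside the rule after its value was seen, had 19 in CKO and 14 in control liver with a ratio of 0.12. Also named outside the rule, Zap70 had 222 in CKO and 222 in control liver (0.01). Syk was lower, with 27 in CKO and 33 in control liver (-0.11). Cd247 was lower too, with 24 in CKO and 28 in control liver (-0.10). Sh2d1a, an adaptor of SLAM receptors in T and NK cells, was listed at 11 in CKO liver alone and was at least 1.19-fold higher.

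The other granzymes with a probe were listed at 3 to 6 on both arrays or were above background on neither. Falls and small differences in them were thus hardly measurable. Of 11 measured genes for other granzymes and granule contents, 8 were above background on both arrays, 6 higher and 2 lower, with 0 past 2-fold and a median ratio of 0.03. Ctsc, which activates granzymes by removing a dipeptide, had 356 in CKO and 235 in control liver with a ratio of 0.55. Srgn, the proteoglycan that packs granzymes, had 89 in CKO and 52 in control liver with a ratio of 0.47. Ctsl had a ratio of 0.16, and Gzme had 6 in CKO and 4 in control liver with 0.06. Ctsw, a protease of cytotoxic lymphocytes, was listed at 5 in CKO liver alone, at least 1.08-fold higher. Myeloid cells and hepatocytes also express Ctsc and Ctsl. Of 9 genes for granule release, 8 were above background on both arrays, 3 higher and 5 lower (median -0.01), led by Stx11 (0.20), Vamp7 (-0.17), Stxbp2 (0.15) and Unc13d (-0.08). Granzymes near Gzmb on chromosome 14 are close to it in sequence, so the share of its signal that belongs to them is uncertain.

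Death ligands and effector cytokines that cytotoxic lymphocytes share with other cells were mixed. Of 9 such genes 7 were above background on both arrays, 5 higher and 2 lower, with 1 past 2-fold, Ccl5, at 418 in CKO and 30 in control liver (ratio 2.66). Ccl3 had 53 in CKO and 6 in control liver (0.95), and Ccl4 had 31 in CKO and 4 in control liver (0.64). Ifng, the main cytokine of activated NK and T cells, had 11 in CKO and 4 in control liver, with a ratio of 0.18. Tnf was listed at 5 in CKO liver alone, at least 1.06-fold higher. The death ligand Fasl was lower, with 9 in CKO and 10 in control liver (-0.05). Lta was also lower, with 5 in CKO and 6 in control liver (-0.03). The death ligand Tnfsf10 was above background on neither array. On the deposited scale 4 of the 7 genes listed for both livers were past 2-fold higher, against 3.98% of all genes so listed.

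Ligands of the receptors were clearly measured. The Qa-1 gene H2-T23, whose product Klrd1 reads with its partners, had 4014 in CKO and 2914 in control liver with a ratio of 0.60, and may share signal with other class I genes. Raet1e, of the family of NKG2D ligands, had 354 in CKO and 282 in control liver (0.32). Properdin, Cfp, a soluble ligand described for NKp46, had 428 in CKO and 167 in control liver (1.20), and myeloid cells are a main source of it. Of 11 ligand genes listed, only these 3 had a probe with a name here.

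Genes common to all leukocytes, T cell markers and macrophage markers were higher in the CKO liver for most of their members, while B cell markers had 3 of 5 higher with a median ratio of 0.02. Over all genes above background on both arrays, 42.2% were higher and 0.616% past 2-fold higher on the normalized scale. On the deposited scale 3.98% of all genes listed for both livers were past 2-fold higher. Of the genes common to all leukocytes, 8 of 8 were higher in CKO liver, 2 past 2-fold on the normalized scale and 7 on the deposited scale, with a median ratio of 0.82. They were led by Cd52 (1.62), Coro1a (1.01), Laptm5 (0.89) and Cd53 (0.83), and their summed deposited intensity was 1012 in CKO and 317 in control liver. T cell markers were higher in 6 of 8 genes above background on both arrays, with a median of 0.24 and a sum of 192 in CKO and 66 in control liver. The CD8 chains Cd8b1 (34 in CKO and 3 in control liver, ratio 0.71) and Cd8a (56 in CKO and 9 in control liver, 0.49), the CD3 chain Cd3d (39 in CKO and 19 in control liver, 0.39) and Cd2 (17 in CKO and 4 in control liver, 0.33) led them, while Cd3g was listed at 9 in CKO liver alone, at least 1.15-fold higher. For Cd8a the measures do not match: its deposited fold was 6.22, but its log2 ratio after simple subtraction of the blank mean was 1.73. Ratios average all probes of a gene, whereas deposited intensities cover listed probes only. The values given for Cd8a may thus rest on unlike probes. Of the T cell markers, Cd5 (4 in CKO and 5 in control liver, -0.03) and Cd6 (11 in CKO and 12 in control liver, -0.02) were lower. Cd3e was not above background on either array. Macrophage markers were higher in 9 of 9, with a median of 1.48 and a sum of 8788 in CKO and 2589 in control liver. Marco (3.91), Lyz2 (1.84), C1qa (1.60) and Cd5l (1.55) led them, and Adgre1, at 5 in CKO liver alone, was at least 1.07-fold higher. Markers of group 1 innate lymphoid cells had 4 of 7 genes above background on both arrays, led by Tmem176a (0.60), Tmem176b (0.46), Cd200r1 (0.14) and Itga1 (0.00), with a sum of 3569 in CKO and 2563 in control liver that comes mainly from the first pair, which other cells express too. The homing receptor Cxcr6 was listed at 2 in CKO liver alone, and Il7r at 11 in control liver alone. The part of any of these cell types in the members' difference was not tested. Several members, among them Gzma, Gzmb, Gzmk, Nkg7, Klrd1, Klrk1 and Il2rb, are known to be expressed by activated CD8 T cells as well as by NK cells.

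**Figure D4:**
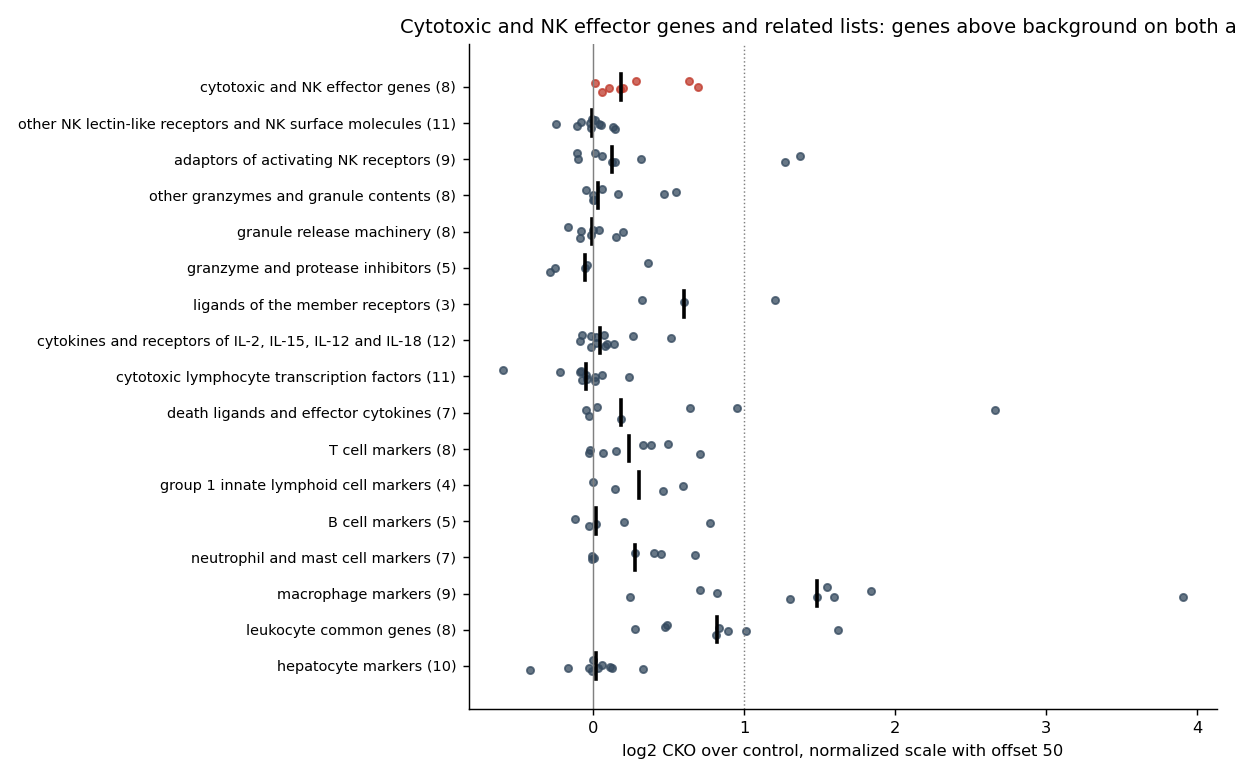
Log2 ratio of CKO over control on the normalized scale (horizontal axis) for the cytotoxic and NK effector genes (red) and 16 related lists (dark), with a point per gene above background on both arrays, black bars at list medians and the number of such genes in brackets. The median of the further NK surface genes is at -0.01, that of T cell markers at 0.24 and that of leukocyte common genes at 0.82.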

How the data were processed

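RNA of CKO and control liver, 1 sample each, was grouped by genotype. Per the labels' protocols it was amplified as amino allyl aRNA and coupled to Cy5. Per the file headers, the scanner files give a median intensity per spot and one for its surroundings, integrated over 3 gains by least-squares lines. Intensity is also the unit of the deposited value table. How the authors made that table is not stated; tested on the values, it is the spot minus the trimmed blank mean (5% at each end) times 0.825 (CKO) or 0.859 (control), rounded, to within 0.514 (CKO) and 1.53 (control). Its median is 25 on both arrays, so scale and centring follow from the spots, and each column is 1 sample's level.

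Spots were corrected with normexp (limma 3.58.1, R 4.3.3) against the blank mean with an offset of 50, control spots left out, arrays quantile-normalized and log2 taken. The 4 flagged spots of the control array and their partners were left out. The local background column, used only as an alternative, rose with the spot's own signal (r = 0.972 in CKO and 0.988 in control liver across gene spots on the log2 scale). Genes above background on 1 array have bounds: the brighter value over the dim one, or over the lowest value above background on that array where this is higher. Blank noise is not included in these bounds. A list gene outside the members was named if among the 4 largest absolute ratios, or the 2 largest bounds, of its list. Hcst, Zap70, Syk, Cd247, Fasl, Lta, Tnfsf10, Klrb1c, Cd3e, Cd5 and Cd6 were named after their values were seen. Members and lists were chosen with earlier results of these data known. Protein sequences were not used here. Alternatives were other offsets, subtraction, scalings, filters, the deposited values and the local background. With 1 array per genotype, no test was made, and precision is limited by the number of arrays.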

Additional observations from a re-analysis of the deposited data

How the results depend on the processing

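The size of the ratios depends on the offset. The count of members past 2-fold was 0 with the offset of 50 and 1 with an offset of 16. It was 5 when the blank mean was simply subtracted and 6 in the deposited values. Median scaling, cyclic loess and the local background column gave 0. No filter and 3 SD also gave 0, but they change only which genes are counted. The brightest probe gave 0 by construction, since each member has 1 probe. The median over members above background on both arrays was 0.19 with the offset of 50, 1.34 after simple subtraction, 1.48 from the deposited table, 0.025 against the local background column, and 0.46 with a threshold of 3 SD, which left 4 members. The number of members above background on the control array was 8 in the main setting, 4 with 3 SD, and 4 with the 95th percentile of positions without a probe. Against the local background column Klrd1 was at -0.0036 and Ncr1 at -0.030, and the other 8 members stayed above 0 in every alternative that gave them a value. The median of the hepatocyte markers was 0.02 in the main setting and -0.047 in the deposited values. The offset shrinks ratios by its construction; the cause of the other shifts was not tested. Positive control spots give a technical SD of 0.23 for a log2 ratio. No paired analysis was possible because each genotype has 1 array.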

Other observations

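Transcription factors of cytotoxic lymphocytes were not higher as a list. Of 12 genes 11 were above background on both arrays, 4 higher and 7 lower in CKO liver, with 0 past 2-fold and a median ratio of -0.04. For comparison, 42.2% of all genes above background on both arrays were higher. Which cell types gave these signals was not tested. Tbx21, the T-box factor of effector lymphocytes, had deposited intensities of 223 in CKO and 242 in control liver (ratio -0.08). Nfil3, needed for NK cell development and also a liver clock-linked gene, had 306 in CKO and 497 in control liver (-0.60), Id2 had 2120 in CKO and 2628 in control liver (-0.22), and Tox had 48 in CKO and 34 in control liver (0.24). Of 5 protease inhibitors, 1 was higher and 4 lower: Serpinb9, the inhibitor of granzyme B, had 42 in CKO and 22 in control liver (0.36), Serpinb1a had 85 in CKO and 115 in control liver (-0.29), Serpinb9b had 45 in CKO and 63 in control liver (-0.25), and Serpinb6a had 33 in CKO and 35 in control liver (-0.05).

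Cytokines and receptors that sustain NK cells had 8 of 12 genes higher, with 0 past 2-fold and a median of 0.05. Il18 had 412 in CKO and 285 in control liver (0.52), Il15ra, which presents IL-15, had 25 in CKO and 13 in control liver (0.26), Il15 had 28 in CKO and 21 in control liver (0.14), and Il2ra had 20 in CKO and 16 in control liver (0.09). Il21r was listed at 2 in CKO liver alone and Il2 at 2 in control liver alone, each at the table's smallest value. Neutrophil and mast cell markers were higher in 5 of 7 genes, with a median of 0.28, led by S100a9 (50 in CKO and 15 in control liver, 0.67), S100a8 (0.45), Csf3r (0.40) and Mcpt4 (0.28); Mpo was listed at 3 in CKO liver alone and Cpa3 at 2 in control liver alone. B cell markers were higher in 3 of 5, with a median of 0.02, led by Blnk (66 in CKO and 20 in control liver, 0.77), Cd79b (0.20), Cd22 (-0.12) and Ms4a1 (-0.03).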
